A study of Mus musculus with 6 samples.

Results

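The 27 genes described here encode the enzymes that make cholesterol, the SREBP transcription factors that control those enzymes, the proteins that process the SREBPs, and 1 sterol carrier. They were chosen by gene symbol, and each matched 1 of the 54446 entries of the deposited expression table. By role they comprise 8 enzymes of the mevalonate and isoprenoid steps, 3 of the squalene and lanosterol steps, 8 that turn lanosterol into cholesterol, 7 SREBP factors and processing proteins, and the carrier Stard4. RNA came from macrophages grown in culture from the bone marrow of C57BL/6 mice aged 6 weeks, and was sequenced. The cells had received PBS, KN93 at 5 µM or KN93 at 10 µM, with 2 samples in each of the 3 groups and no genetic change named in the labels. KN93 is a small-molecule inhibitor of calcium/calmodulin-dependent protein kinase II. The labels give neither the length of treatment nor whether replicates were separate cultures or animals. The p-values thus reflect the spread among these 6 samples alone, and that spread may be technical.

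Cells build cholesterol from acetyl-CoA by way of mevalonate, farnesyl diphosphate, squalene and lanosterol. SREBP-2, encoded by Srebf2, switches on most genes of this route, while SREBP-1, encoded by Srebf1, acts mainly on fatty acid synthesis. With ample sterol the INSIG proteins hold the SREBP precursors and their escort SCAP in the endoplasmic reticulum, and with little sterol the precursors reach the Golgi, where the proteases encoded by Mbtps1 and Mbtps2 release the active factor. Macrophages also take up cholesterol from lipoproteins and dead cells, and export it through ABC transporters.

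Levels are FPKM, fragments per kilobase of exon and per 1000000 fragments, and are given with the value of replicate 1 before that of replicate 2. Changes are differences on the log2(FPKM + 1) scale with their standard error from limma, a scale that understates the change of genes with low levels. A gene is said to have risen or fallen where limma's Benjamini-Hochberg adjusted p, over the 12722 genes that reached 1 FPKM in 2 or more samples, was under 0.05. In units of 1000000 fragments, the library totals implied by the values lay between 24.2 and 28.4.

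Defining genes of macrophages were present in every sample, and most tested stromal and neutrophil markers were lower with KN93. The summed FPKM of 8 macrophage markers, all 8 tested, was 18831 to 19327 with PBS, 15270 to 15756 at 5 µM and 8902.5 to 9858 at 10 µM, most of it from Lyz2. Of these 8 genes, 2 rose and 4 fell at 5 µM, and 1 (Cd68) rose and 6 fell at 10 µM. That of 9 stromal markers, 8 of them tested, was 1925 to 1969, then 524 to 634, then 368 to 388, most of it from Col1a1 and Acta2. Of the 8 tested, 5 fell at 5 µM, 6 fell at 10 µM and 0 rose at either dose. The PBS and 10 µM samples overlapped for Dcn and Pdgfra. The summed FPKM of 9 neutrophil markers was 115 in both PBS samples, then 37.1 to 42.7, then 5.22 to 7.31. Of these, 5 were tested, and all 5 fell at both doses. The dendritic and lymphoid lists summed to at most 0.355 and 0.322 FPKM in any sample, with none of their genes tested and Cd3d listed at 0 throughout. Mitochondrial transcripts took 0.885% to 0.947% of fragments with PBS, 0.565% to 0.674% at 5 µM and 0.378% to 0.464% at 10 µM. The part of these shifts in the results below was not tested. In such bulk samples, fewer cells of a type and less RNA per cell cannot be told apart.

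At 10 µM KN93 the sterol genes were mostly lower than with PBS. Of the 27 genes, 26 passed the filter on low values and Fdps did not. Among the 26, 18 fell and 2 rose, while 6 were not called. Over all genes tested, 22.0% fell and 28.5% rose in this comparison. The median change of the 26 was -0.35, against 0.05 over all genes tested. Tm7sf2 passed the filter through its PBS and 5 µM samples alone. The 13 calls that held under every alternative in which the gene was tested were all falls, of Srebf2, Srebf1, Insig1, Mbtps1, Hmgcs1, Idi1, Cyp51, Tm7sf2, Msmo1, Hsd17b7, Ebp, Dhcr7 and Stard4.

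At 5 µM the picture was mixed, with 7 of the 26 lower and 3 higher, against 15.4% and 15.1% of all genes tested. The median change of the 26 was -0.09, against 0.01 over all genes. Fewer of the 26 were called when any 1 of the 4 samples compared was left out. That drop was not set against the drop over all genes. Falls of Cyp51, Srebf1 and Stard4 were the 3 calls that held under every alternative.

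Between the doses 10 of the 26 were lower at 10 µM than at 5 µM, against 8.50% of all genes tested. By limma 0 were higher, against 11.4% of all genes, although 2 had a higher value at an unadjusted p under 0.05. The voom fit on recovered fragments also called 0 higher. The number called dropped when any 1 of the 6 samples was left out, and this drop was not set against that over all genes. The falls of Srebf2 and Dhcr7 held under every alternative. The comparisons of each dose with PBS use the same PBS samples.

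**Figure D1:**
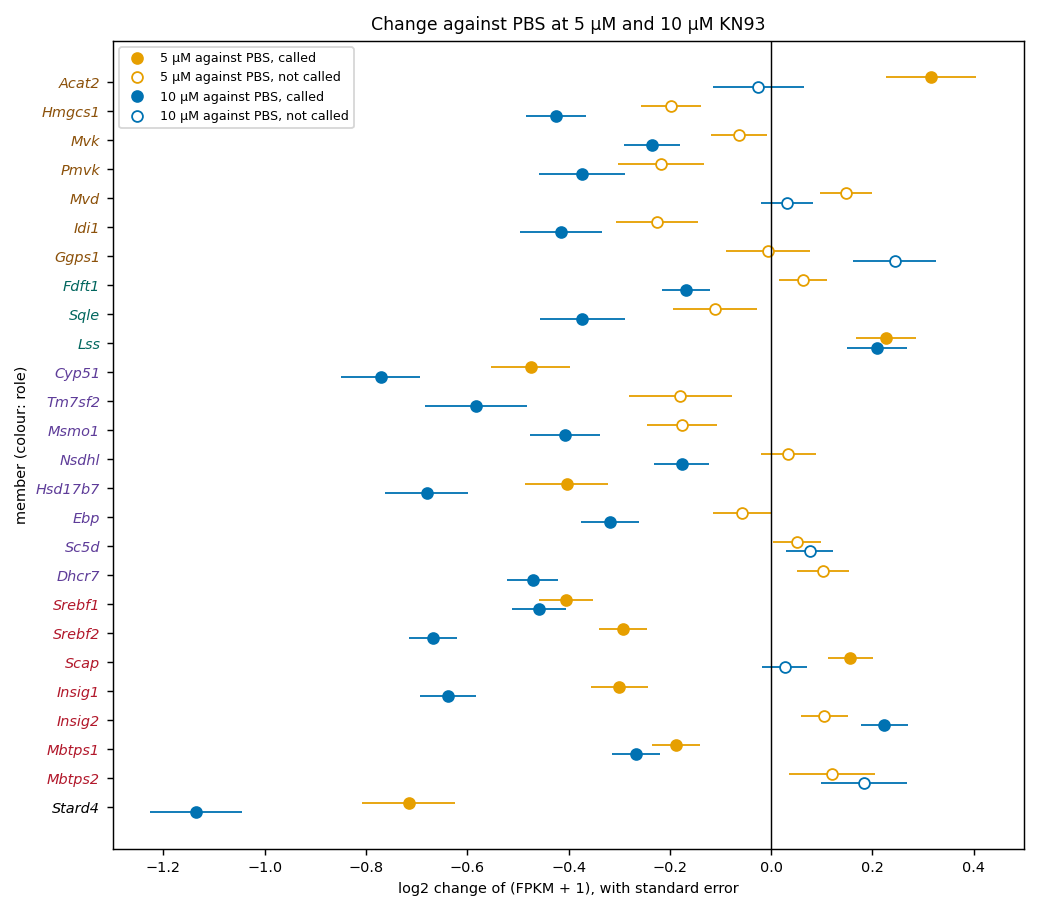
Change of each of the 26 tested genes on the log2(FPKM + 1) scale at 5 µM and at 10 µM KN93 against PBS, grouped by role, with bars for the standard error from limma. Stard4 lies farthest below 0 at both doses, at -0.72 and -1.14, and Lss lies above 0 at both.

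The gene for the master regulator of the pathway fell at each dose. Srebf2 (chromosome 15, 82147181 to 82205379, GRCm38) stood at 32.1 and 31.3 FPKM with PBS, then 26.0 and 25.4 (5 µM), then 20.1 and 19.1 (10 µM). The 3 groups did not overlap, and the level at 10 µM was 61.8% of that with PBS. The change was -0.29 ± 0.05 at 5 µM (limma adjusted p = 0.00795) and -0.67 ± 0.05 at 10 µM (adjusted p = 0.00021), and the further step between the doses was -0.38 ± 0.05 (adjusted p = 0.00596). Leaving out the PBS replicate 1 (limma adjusted p = 0.054) or the 5 µM replicate 2 (0.053) ended the call at 5 µM. Srebf1 had levels of 18.8 and 18.7 FPKM with PBS, then 14.5 and 13.4 (5 µM), then 13.6 and 13.2 (10 µM). The PBS samples stood above all treated ones, while the treated groups overlapped. Srebf1 fell by 0.41 ± 0.05 on the log2 scale at 5 µM (limma adjusted p = 0.00449) and by 0.46 ± 0.05 at 10 µM (adjusted p = 0.00125). The ratio of Srebf2 to Srebf1 in FPKM was 1.71 and 1.67 with PBS, then 1.80 and 1.90 (5 µM), then 1.48 and 1.45 (10 µM).

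The INSIG genes moved in opposite directions. Insig1, an SREBP target whose protein retains SCAP, had levels of 40.4 and 42.6 FPKM with PBS, then 34.1 and 32.9 (5 µM), then 27.2 and 25.4 (10 µM), with no overlap between groups. It fell by 0.30 ± 0.06 at 5 µM (limma adjusted p = 0.0127) and by 0.64 ± 0.06 at 10 µM (adjusted p = 0.000439). At 5 µM the call ended without the PBS replicate 2 (limma adjusted p = 0.0707) or the 5 µM replicate 2 (0.0735). Insig2, which serves the same retention, stood at 8.24 and 8.06 FPKM with PBS, then 8.79 and 8.89 (5 µM), then 9.79 and 9.57 (10 µM). The groups did not overlap for Insig2 either, and it rose at 10 µM by 0.22 ± 0.05 (limma adjusted p = 0.0103). That call was lost without the PBS replicate 2 (limma adjusted p = 0.0622). In FPKM, Insig1 was 4.91 and 5.28 times the level of Insig2 with PBS, 3.88 and 3.70 times at 5 µM, and 2.78 and 2.66 times at 10 µM.

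At 10 µM Mbtps1 fell, while Scap and Mbtps2 were not called. Scap, the escort of the SREBPs, had 11.7 and 11.6 FPKM with PBS, then 13.1 in both samples (5 µM), then 12.03 and 11.8 (10 µM). It rose at 5 µM by 0.16 ± 0.04 (limma adjusted p = 0.0435), a call lost under 10 alternatives, and its change at 10 µM was 0.03 ± 0.04 (adjusted p = 0.648). Mbtps1, the site-1 protease, had 11.3 and 11.1 FPKM with PBS, then 9.54 and 9.94 (5 µM), then 9.11 and 9.21 (10 µM). The PBS samples lay above all others, and Mbtps1 fell by 0.27 ± 0.05 at 10 µM (limma adjusted p = 0.00574). Its fall at 5 µM, by 0.19 ± 0.05 (limma adjusted p = 0.0326), was lost under 6 alternatives. Mbtps2, the site-2 protease, had 3.37 and 3.94 FPKM with PBS, then 4.13 and 3.97 (5 µM), then 4.52 and 4.04 (10 µM), with overlap between groups, and its change of 0.18 ± 0.08 was not called (limma adjusted p = 0.125). It shares 28.4% of its exon bases with Yy2, which is listed at 0 in every sample.

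The promoter sequences of 6 of these genes are printed because the SREBPs act there together with the factors NF-Y and Sp1. Cyp51, Hsd17b7, Srebf2 and Insig1 had the largest falls at 10 µM among genes with a single promoter window, Hmgcs1 held a full sterol element, and Lss rose. Each line gives the 200 bases before the start annotated by RefSeq on GRCm38.p6, 5′ to 3′ on the strand of the gene. The gene bounds of GENCODE M21 differ from these starts. The lines of Cyp51, Hsd17b7, Srebf2, Insig1 and Lss lie partly within those bounds. Capitals mark every match, on either strand, to TCACNCCAC (the core of the sterol element), TCACNNCA (a shortened form of it, added after the windows had been read), CCAAT (bound by NF-Y), GGGCGG (the GC box, bound by Sp1) or CACGTG (the E-box).
Cyp51, chr5:4104698-4104897, minus strand: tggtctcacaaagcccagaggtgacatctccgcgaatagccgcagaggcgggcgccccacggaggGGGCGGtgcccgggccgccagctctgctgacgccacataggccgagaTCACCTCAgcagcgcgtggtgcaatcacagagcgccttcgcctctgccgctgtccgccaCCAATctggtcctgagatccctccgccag
Hsd17b7, chr1:169969206-169969405, minus strand: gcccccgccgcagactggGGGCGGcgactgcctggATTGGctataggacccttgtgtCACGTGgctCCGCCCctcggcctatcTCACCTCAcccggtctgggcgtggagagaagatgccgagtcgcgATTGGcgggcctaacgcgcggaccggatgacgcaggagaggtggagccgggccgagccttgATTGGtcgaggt
Srebf2, chr15:82147069-82147268, plus strand: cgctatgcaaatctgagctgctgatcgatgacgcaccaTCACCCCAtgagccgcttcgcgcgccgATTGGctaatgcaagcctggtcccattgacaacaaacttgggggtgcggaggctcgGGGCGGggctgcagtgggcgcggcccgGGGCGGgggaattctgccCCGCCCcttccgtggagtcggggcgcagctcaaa
Insig1, chr5:28071212-28071411, plus strand: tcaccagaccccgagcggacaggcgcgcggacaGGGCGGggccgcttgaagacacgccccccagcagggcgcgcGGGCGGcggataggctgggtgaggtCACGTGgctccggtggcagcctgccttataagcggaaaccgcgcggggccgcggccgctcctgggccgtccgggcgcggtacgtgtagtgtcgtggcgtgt
Hmgcs1, chr13:119690151-119690350, plus strand: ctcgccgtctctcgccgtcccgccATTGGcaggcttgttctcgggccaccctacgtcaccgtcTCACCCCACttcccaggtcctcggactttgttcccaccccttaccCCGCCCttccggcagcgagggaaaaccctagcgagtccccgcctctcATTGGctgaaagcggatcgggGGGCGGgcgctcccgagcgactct
Lss, chr10:76531405-76531604, plus strand: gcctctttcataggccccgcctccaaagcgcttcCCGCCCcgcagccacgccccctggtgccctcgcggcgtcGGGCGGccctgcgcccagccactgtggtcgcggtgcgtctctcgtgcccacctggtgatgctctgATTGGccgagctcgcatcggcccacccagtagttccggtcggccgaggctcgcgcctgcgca

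In these lines the complement of CCAAT reads ATTGG and that of GGGCGG reads CCGCCC. Of the genes with a window, Hmgcs1 was the only one with the full core TCACNCCAC, which also matches TCACNNCA. Srebf2 carried TCACCCCA, the core without its last base. Cyp51 and Hsd17b7 carried TCACCTCA, which matches the looser pattern alone. A RefSeq window of 300 bases, 250 before the start and 50 after it, was found for 23 of the 27 genes, 31 windows in all because some genes have more than 1 start. TCACNCCAC stood in 1 of the 31 windows (3.23%) and in 1.24% of all 32851 windows of that length. CCAAT stood in 20 (64.5%) against 37.4%, GGGCGG in 24 (77.4%) against 35.7%, and CACGTG in 6 (19.4%) against 7.15%. TCACNNCA stood in 11 (35.5%) against 13.8%. Because that pattern was chosen after the windows of these genes had been read, no conclusion is drawn from its shares. The median GC content was 61.3% in the 31 windows and 52.7% in all, and windows of the same gene can overlap. A match describes the letters only and shows no binding.

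Among the mevalonate enzymes, 4 of the 7 tested fell at 10 µM and the other 3 were not called. Hmgcs1, the synthase that makes HMG-CoA, stood at 19.5 and 18.3 FPKM with PBS, then 16.9 and 15.8 (5 µM), then 14.2 and 13.4 (10 µM). Its groups did not overlap, and it fell by 0.43 ± 0.06 at 10 µM (limma adjusted p = 0.00248). At 5 µM its change was -0.20 ± 0.06 (limma adjusted p = 0.0552). Mvk, mevalonate kinase, had 8.56 and 8.69 FPKM with PBS, then 8.49 and 7.94 (5 µM), then 7.02 and 7.34 (10 µM), a fall of 0.24 ± 0.05 (limma adjusted p = 0.0152). Pmvk, the next kinase, had 9.24 and 8.90 FPKM with PBS, then 7.96 and 7.37 (5 µM), then 6.21 and 7.38 (10 µM), a fall of 0.37 ± 0.09 (limma adjusted p = 0.0144). For both kinases the PBS samples stood above the 10 µM samples. The call of Mvk was lost without either of the PBS samples (limma adjusted p = 0.0623 and 0.0763) or the 10 µM replicate 1 (0.0588), and that of Pmvk without the PBS replicate 1 (0.0705). Idi1, which isomerises the isoprene unit, had 3.85 and 3.27 FPKM with PBS, then 2.91 and 2.87 (5 µM), then 2.49 and 2.34 (10 µM), and fell at 10 µM by 0.41 ± 0.08 (limma adjusted p = 0.00832). Its processed pseudogene Gm13502 is identical to it over 684 bases, so fragments of the pair can be mixed.

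Mvd, Ggps1 and Acat2 did not follow at 10 µM. Mvd, the decarboxylase of the same chain, had 17.3 and 17.9 FPKM with PBS, then 20.03 and 19.2 (5 µM), then 17.6 and 18.5 (10 µM), and its change at 10 µM was 0.03 ± 0.05 (limma adjusted p = 0.64). Ggps1, which makes the geranylgeranyl diphosphate used in protein prenylation, had 4.11 and 4.62 FPKM with PBS, then 4.42 and 4.25 (5 µM), then 4.99 and 5.72 (10 µM), with a change of 0.24 ± 0.08 (limma adjusted p = 0.053). Acat2, a cytosolic thiolase at the head of the route, had 4.79 and 4.86 FPKM with PBS, then 6.36 and 6.14 (5 µM), then 5.24 and 4.25 (10 µM). Both 5 µM samples stood above all others. Acat2 rose at 5 µM by 0.32 ± 0.09 (limma adjusted p = 0.0452), a call lost under 7 alternatives, and was lower at 10 µM than at 5 µM by -0.34 ± 0.09 (adjusted p = 0.0487), a call lost under 9. Its values are uncertain, since the gene Acat3 matches it at 97.7% over 1477 bases. The gene Tcp1, at 30.4 to 35.7 FPKM, also matches it, at 98.7% over 445 bases.

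**Figure D2:**
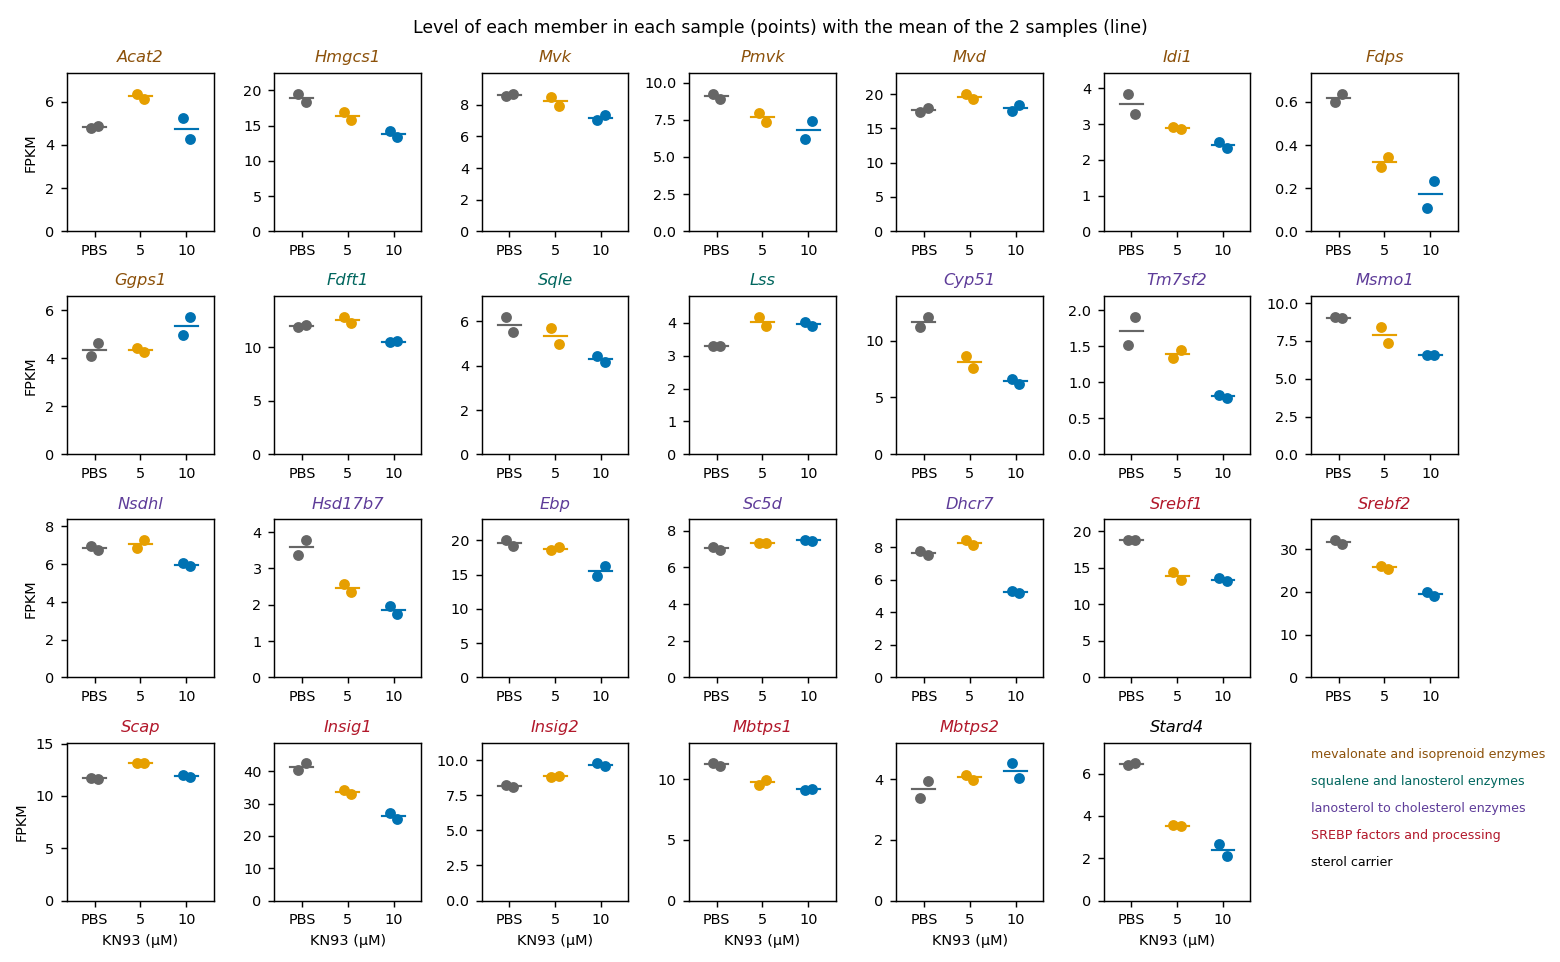
FPKM of each of the 27 genes, on a linear axis from 0, against the group (PBS, 5 µM or 10 µM KN93), with a point for each of the 2 samples, a line at their mean and name colours for the role. Srebf2, Insig1, Cyp51 and Stard4 step down from PBS to 10 µM without overlap, whereas Sc5d stays between 6.97 and 7.50 FPKM in all samples.

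Fdps, farnesyl diphosphate synthase, was under the filter and received no test with the others. Its levels were 0.601 and 0.637 FPKM with PBS, then 0.298 and 0.343 (5 µM), then 0.108 and 0.234 (10 µM), from 68, 76, 33, 40, 11 and 28 fragments in that order. The groups did not overlap. In the fit of 30856 genes without the filter, its change was -0.47 ± 0.07 at 10 µM (limma adjusted p = 0.0149) and -0.29 ± 0.07 at 5 µM (adjusted p = 0.0868). In the genome, 4 processed pseudogenes match its transcripts at 95% identity or more over at least 200 bases. Their summed FPKM exceeded that of Fdps itself, at 4.66 and 5.39 with PBS, then 5.14 and 4.35 (5 µM), then 3.001 and 2.92 (10 µM). Added to Fdps, they gave 7.47 and 8.40 fragments per 1000000 with PBS, then 6.72 and 6.06 (5 µM), then 3.64 and 4.09 (10 µM), again without overlap. How the authors' counting split such fragments is not given in the sources used here.

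**Figure D3:**
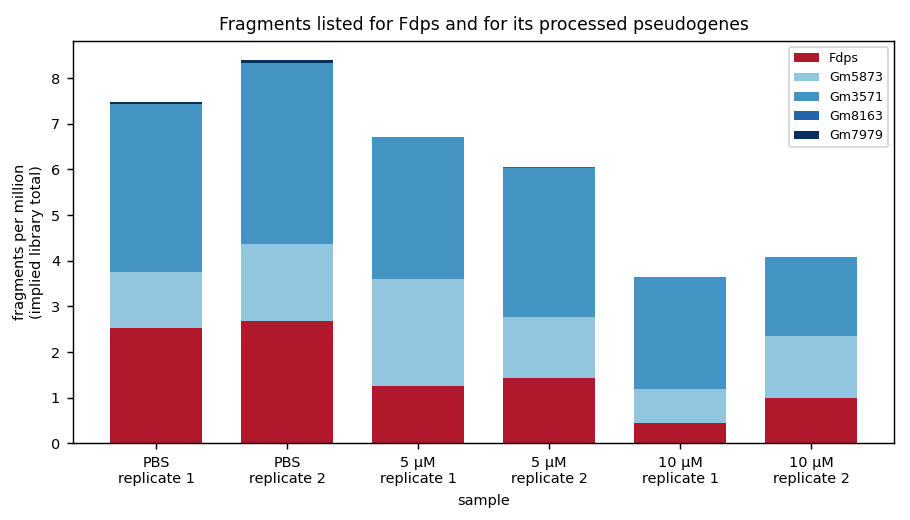
Stacked bars of fragments per 1000000, from the implied library totals, for Fdps and its 4 processed pseudogenes in each of the 6 samples (PBS, 5 µM and 10 µM KN93). The stacks reach 7.47 and 8.40 with PBS and 3.64 and 4.09 at 10 µM, and Fdps is the smaller part of each.

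The squalene and lanosterol enzymes did not move together. Fdft1, squalene synthase, had 11.9 and 12.1 FPKM with PBS, then 12.9 and 12.3 (5 µM), then 10.5 and 10.6 (10 µM), and both 10 µM samples were below all others. It fell by 0.17 ± 0.05 at 10 µM against PBS (limma adjusted p = 0.0293), a call lost when any 1 of the 4 samples compared was left out (0.0711 to 0.125). Fdft1 shares 18.3% of its exon bases with Ctsb, which lies on the opposite strand at 1554 to 2273 FPKM. Without a stated use of strand in the counting, fragments of the pair cannot be told apart. Sqle, the squalene epoxidase and a slow step of the route, had 6.20 and 5.50 FPKM with PBS, then 5.69 and 5.00 (5 µM), then 4.42 and 4.15 (10 µM). The 10 µM samples were below all others, and Sqle fell by 0.37 ± 0.08 (limma adjusted p = 0.0134), a call lost without the PBS replicate 1 (0.0721) or the 10 µM replicate 2 (0.0635). Lss, which closes the sterol rings to form lanosterol, went the other way, with 3.30 in both PBS samples, 4.17 and 3.89 at 5 µM and 4.03 and 3.90 at 10 µM. Every treated sample was above both PBS samples. Lss rose by 0.23 ± 0.06 at 5 µM (limma adjusted p = 0.036) and by 0.21 ± 0.06 at 10 µM (adjusted p = 0.0304). The first call was lost under 6 alternatives and the second was lost when any 1 of the 4 samples compared was left out (0.0657 to 0.115).

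Of the enzymes from lanosterol to cholesterol, 7 of 8 fell at 10 µM. Cyp51 (chromosome 5, 4081145 to 4104746, GRCm38), the lanosterol demethylase, had 11.2 and 12.1 FPKM with PBS, then 8.64 and 7.58 (5 µM), then 6.65 and 6.17 (10 µM). Its groups did not overlap. It fell by 0.47 ± 0.08 at 5 µM (limma adjusted p = 0.00849) and by 0.77 ± 0.08 at 10 µM (adjusted p = 0.000735), to 55.0% of the PBS level. Hsd17b7, a 3-keto reductase of the demethylation complex, had 3.38 and 3.78 FPKM with PBS, then 2.56 and 2.36 (5 µM), then 1.96 and 1.75 (10 µM). It fell by 0.68 ± 0.08 at 10 µM (limma adjusted p = 0.00135), to 51.9% of the PBS level. Its fall at 5 µM, by 0.40 ± 0.08 (limma adjusted p = 0.0163), was lost without the PBS replicate 2 (0.0896), without either of the 5 µM samples (0.0534 and 0.0844) and without the filter (0.054). Tm7sf2, a sterol reductase, had 1.52 and 1.91 FPKM with PBS, then 1.34 and 1.45 (5 µM), then 0.828 and 0.787 (10 µM). It fell at 10 µM by 0.58 ± 0.10 (limma adjusted p = 0.00533), and its change was -1.08 in the voom fit on recovered fragments, which uses no pseudocount of 1 FPKM. By mean FPKM it reached 47.1% of the PBS level.

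Dhcr7, the reductase of the last step, fell at 10 µM and was not called at 5 µM. It stood at 7.75 and 7.52 FPKM with PBS, then 8.43 and 8.11 (5 µM), then 5.31 and 5.15 (10 µM), so that the 5 µM samples were highest and the 10 µM samples lowest. Its change was 0.10 ± 0.05 at 5 µM (limma adjusted p = 0.188) and -0.47 ± 0.05 at 10 µM (adjusted p = 0.000941), and the step between the doses was -0.57 ± 0.05 (adjusted p = 0.00246). The step from 5 to 10 µM was lower than that from PBS to 5 µM by -0.68 ± 0.09 (limma adjusted p = 0.027). Dhcr7 was the 1 sterol gene for which these steps were called different, against 5.36% of all genes tested. That call was lost when any 1 of the 6 samples was left out (adjusted p = 0.0516 to 0.168) and without the filter (0.0807).

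Of the other late enzymes, Msmo1, the methylsterol oxidase, had 9.09 and 8.995 FPKM with PBS, then 8.44 and 7.36 (5 µM), then 6.61 and 6.55 (10 µM). It fell at 10 µM by 0.41 ± 0.07 (limma adjusted p = 0.00487). Ebp, the sterol isomerase, had 20.045 and 19.2 FPKM with PBS, then 18.6 and 19.0 (5 µM), then 14.9 and 16.2 (10 µM), and fell by 0.32 ± 0.06 (limma adjusted p = 0.00613). For both genes the 10 µM samples were below all others. Nsdhl, the decarboxylating dehydrogenase, had 6.97 and 6.77 FPKM with PBS, then 6.84 and 7.27 (5 µM), then 6.05 and 5.88 (10 µM), a fall of 0.18 ± 0.05 (limma adjusted p = 0.0387) that was lost when any 1 of the 6 samples was left out (0.0559 to 0.165). Sc5d, the desaturase, had 7.12 and 6.97 FPKM with PBS, 7.33 in both samples at 5 µM, then 7.50 and 7.46 (10 µM), and its change of 0.08 ± 0.05 was not called (limma adjusted p = 0.224).

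Stard4, a carrier that moves cholesterol between membranes inside the cell, had the largest fall of the 26 at both doses. It stood at 6.40 and 6.49 FPKM with PBS, then 3.56 and 3.51 (5 µM), then 2.70 and 2.11 (10 µM), and the groups did not overlap. The change was -0.72 ± 0.09 at 5 µM (limma adjusted p = 0.00397) and -1.14 ± 0.09 at 10 µM (adjusted p = 0.000322). The mean level was 54.8% of that with PBS at 5 µM and 37.2% at 10 µM. The change from 5 to 10 µM was -0.42 ± 0.09 (limma adjusted p = 0.0293), a call lost under 7 alternatives.

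Genes of related pathways are given by their counts at 10 µM, to be read against the 28.5% of all genes that rose and the 22.0% that fell. Among 10 tested genes of sterol uptake and other SREBP-2 targets, 5 rose and 3 fell at 10 µM, with a median change of 0.18. Npc1, which exports cholesterol from lysosomes, rose from 31.5 and 35.1 FPKM with PBS to 50.4 and 50.7 at 5 µM and 59.3 and 60.6 at 10 µM, by 0.83 on the log2 scale at 10 µM (limma adjusted p = 0.000233). Among 16 tested regulators of the stability and trafficking of the sterol sensors, 8 rose and 2 fell, with a median of 0.15. Trib1 had the largest change of these, from 8.07 and 7.73 FPKM with PBS to 1.51 and 1.31 at 10 µM. On the log2 scale its change was -1.89. Among 12 genes of the isoprenoid branch and prenylation, 5 rose and 1 fell, with a median of 0.09. Nus1, which rose, is counted both here and among the sterol uptake genes and other SREBP-2 targets. Among 14 fatty acid synthesis genes, 4 rose and 3 fell, with a median of 0.07. Acss2 had the largest change of these, from 0.874 and 0.830 FPKM with PBS to 3.35 and 3.62 at 10 µM. Its change was 1.28 on the log2 scale, and it passed the filter through its KN93 samples alone.

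Cholesterol efflux and storage genes, many of them targets of the sterol receptor LXR, were the one related list with more falls than rises at 10 µM, with 7 of 13 lower, 2 higher and a median of -0.37. Abca1, which exports cholesterol to apolipoprotein A-I, had 69.4 and 75.4 FPKM with PBS, then 32.0 and 33.9 (5 µM), then 10.8 and 9.79 (10 µM). Soat1, which esterifies cholesterol for storage, had 31.8 and 34.1 FPKM with PBS, then 49.0 and 53.2 (5 µM), then 61.0 and 60.5 (10 µM). The groups of neither gene overlapped, and the changes at 10 µM were -2.70 for Abca1 and 0.86 for Soat1.

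**Figure D4:**
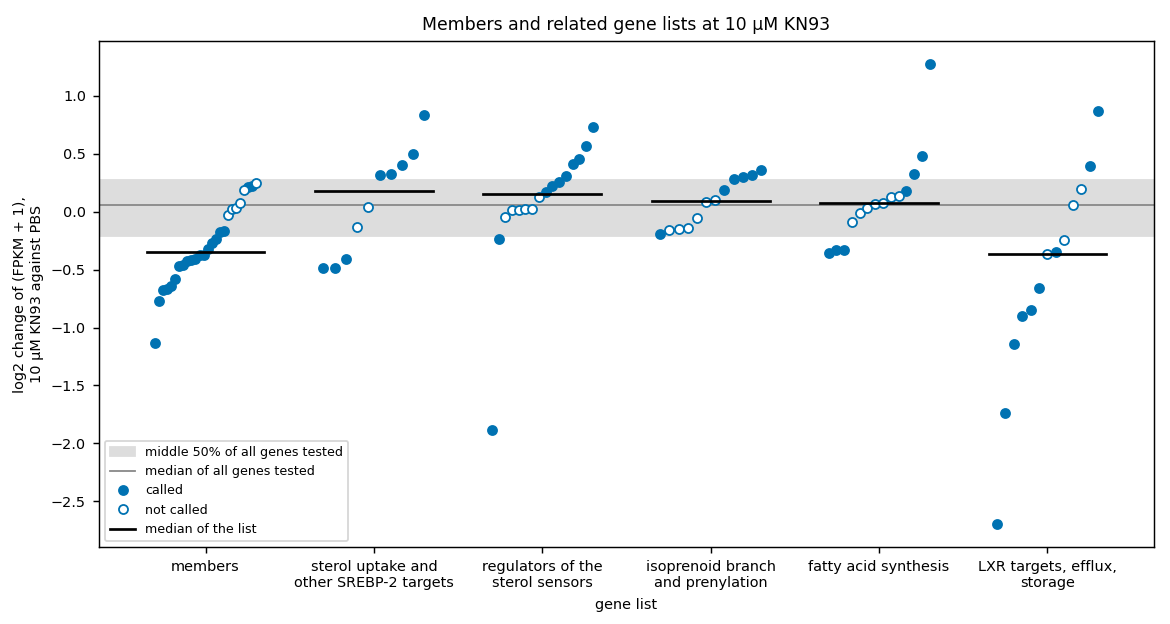
Change at 10 µM KN93 against PBS on the log2(FPKM + 1) scale for each tested gene of the sterol synthesis group and of the related lists, with a line at the median of each list and a grey band for the middle 50% of all genes tested. Filled points were called. The median is -0.35 for the sterol genes and -0.37 for efflux and storage, and between 0.07 and 0.18 for the other lists.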

How the data were processed

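Total RNA of the 6 samples had been sequenced and aligned with HISAT2 to GRCm38, per the submitters' processing notes. The counting tool is not given in the sources used here, nor are the annotation and the use of strand. The authors deposited FPKM values in 1 table, and no scaling between samples is stated. Multiplying them by exon lengths from GENCODE M21 recovered fragments and library totals, with 98.8% to 99.0% of low values (at most 20 fragments) whole to within 0.1.

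The values were fitted as log2(FPKM + 1) with limma 3.58.1 in R 4.3.3, with an intensity trend, over all 6 samples and with 3 group levels. Tests were two-sided and adjusted over 12722 genes. The members, the related lists and the tests were chosen with earlier results of these data known. All 27 members were to be named, and of the related lists up to 3 tested genes each with the smallest p at 10 µM against PBS, of which some are given. Transcripts matching at 95% identity or more over at least 200 bases were taken as copies. Alternatives changed the pseudocount (0.1 FPKM), the filter (none, or 5 FPKM in 2 samples), the scaling (median of ratios, quantile) or the samples fitted (only the groups compared, each sample left out), added a replicate block, or used voom on recovered fragments. The fit was tested on simulated data.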

Additional observations from a re-analysis of the deposited data

How the results depend on the processing

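Against PBS at 10 µM, the 20 calls became 14 to 20 under the alternatives, and no called change of the 26 genes reversed in any of the 4 comparisons. At 5 µM against PBS the 10 calls became 5 without the filter and 3 to 10 with 1 sample left out. Between the doses the 10 calls became 4 without the filter, 3 with only the groups compared and 2 to 5 with 1 sample left out, but 15 under median-of-ratios scaling and 13 under quantile normalization or voom on recovered fragments. For the difference between dose steps, calls over all genes went from 682 to 45 without the filter. The single call among the 26 became 0 without the filter (7 at an unadjusted p under 0.05). It became 2 under quantile normalization or voom on recovered fragments. With 1 sample left out it was 0 by limma, with 3 to 8 at an unadjusted p under 0.05. Replicate numbers follow accession order, and the labels name no pairing of the samples. Over genes, the differences of replicate 2 from replicate 1 correlated at -0.055, 0.0143 and 0.0373 for the 3 pairs of groups. Such values cannot exclude a pairing, since the spread of many genes can hide it. With the replicate number as a block, 6 calls were made between the doses. Of 1406 refits of single genes, 1245 had the same outcome as the main fit, which includes genes called in neither. A call was lost in 135 and gained in 26. Called changes reversed in 0, while changes in sign without a call were not counted. The 2 samples a group limit the precision of every change, and the few fragments of Fdps limit its values.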
